A study of Mus musculus with 12 samples.

Results

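The 10 genes described here encode subunits of the cytosolic chaperonin and the main cytosolic heat shock proteins, followed from normal mouse liver into MYC-driven liver tumors and into the same kind of tumor under 2 mTOR inhibitors. The set was chosen by gene symbol, with earlier results of these data known. It holds Tcp1, Cct2, Cct3, Cct5 and Cct8 of the chaperonin, and Hspa8, Hsp90aa1, Hsp90ab1, Hsph1 and Hspb1 of the heat shock families. All 10 were listed among the 17007 gene symbols measured, and all 10 were among the 14397 genes that had at least 0.5 FPKM (fragments for each kilobase of exon, relative to library depth) in at least 3 libraries and were tested.

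RNA-Seq was performed on 12 libraries in 4 groups of 3. Normal livers (labelled NL) came from wild-type C57BL/6 mice. The tumors were c-MYC/MCL1/RictorKO Tsc2KO hepatocellular carcinomas (HCC), raised by hydrodynamic tail vein injection, a method that drives plasmid DNA into hepatocytes, of c-MYC, MCL1 and pCMV-Cre plasmids. The recipient mice were Rictor fl/fl Tsc2 fl/fl. By the labels, every tumor group therefore carried both oncogenes and both deletions, and the normal livers carried none of these and received no gavage, so that genotype, injection, tumor and dosing cannot be told apart in any comparison with normal liver. Cre was expressed from a general viral promoter, and deletion was limited to cells that took up plasmid. The tumor groups were given vehicle (labelled T), the mTOR kinase inhibitor MLN0128 (labelled INK), which acts on mTORC1 and mTORC2, or everolimus (labelled EVE), a rapamycin analog that acts on mTORC1. Drugs were given by gavage at 1 mg/kg/day on 6 days a week for 3 weeks, starting 6 days after injection, with sacrifice 3.7 weeks after injection according to the labels. The text of the study also gives 3 days of treatment for the RNA-Seq tumors, and the labels were followed here. Ages were not given, and animals of both sexes were used.

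CCT, the cytosolic chaperonin, is built of 2 stacked rings of 8 different subunits each, and uses ATP to fold newly made proteins. Its best known clients are actin and tubulin. HSP70 proteins such as HSC70 (Hspa8) bind unfolded stretches of many nascent proteins, HSP110 (Hsph1) releases ADP from HSP70 so that a cycle can start again, and HSP90 (Hsp90aa1 and Hsp90ab1) acts later on kinases, steroid receptors and other near-native clients. Small heat shock proteins such as HSP25/27 (Hspb1) hold unfolded proteins without using ATP. Heat shock factor 1 raises the inducible members of these families under stress, while Hspa8, Hsp90ab1 and the CCT genes are transcribed in unstressed cells, more so in dividing ones.

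Values were FPKM as deposited, so levels of different genes can be set side by side per length. Differences were computed on the log2(FPKM + 1) scale with limma, in 1 fit of all 12 libraries, and a gene is called higher or lower at a Benjamini-Hochberg adjusted p under 0.05 over all 14397 tested genes. A second call asked for evidence of a change beyond 1.5-fold (limma treat). Every log2 difference below is the first group named minus the second. The added 1 makes differences smaller than those of FPKM alone, most of all for genes near or below 1 FPKM. The labels give n = 3 per group and no animal numbers, so the p-values measure the spread between these libraries, which may in part be technical.

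**Figure D1:**
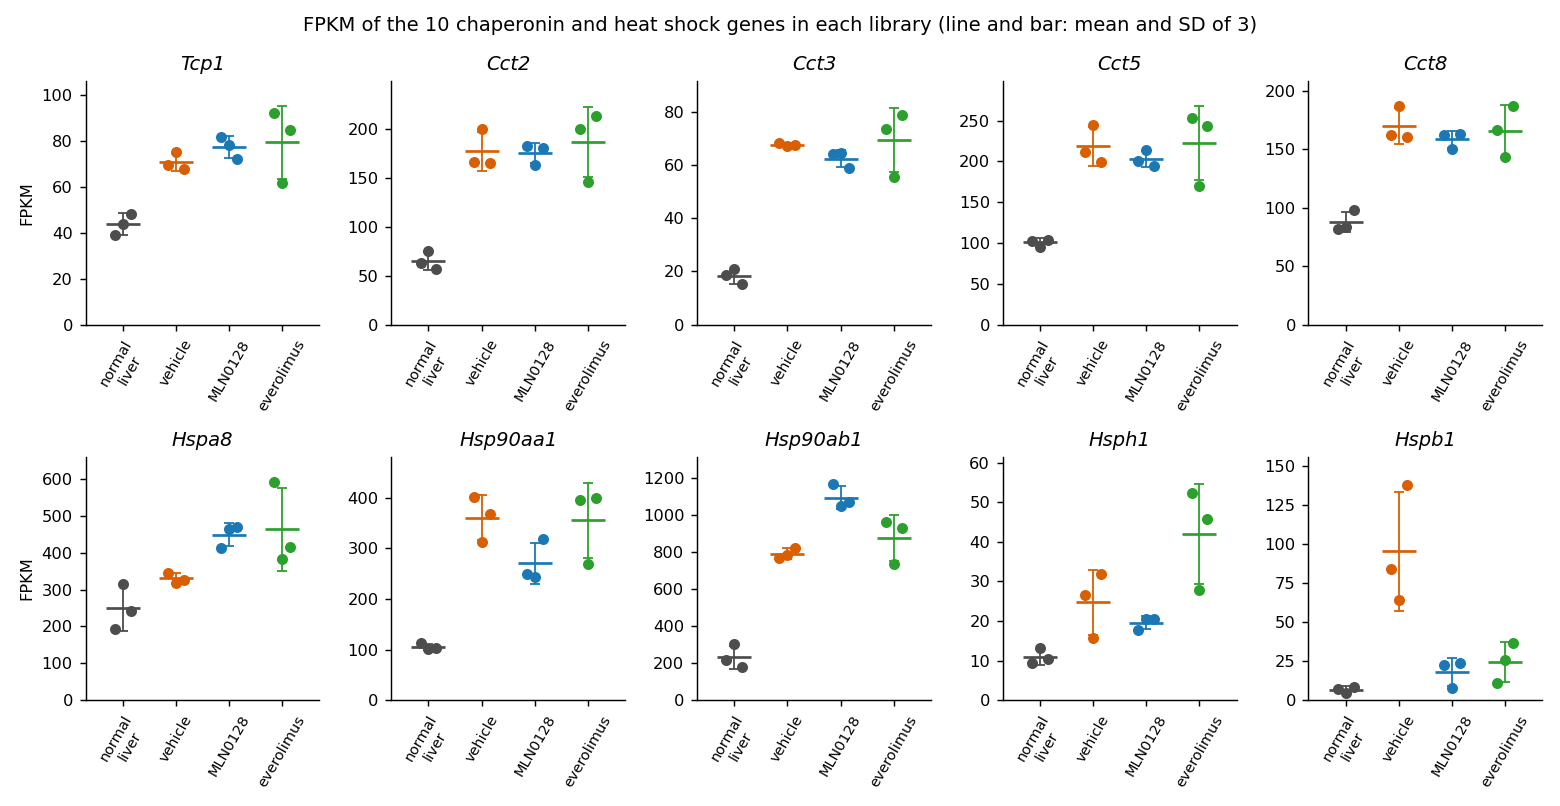
FPKM of the 10 genes in each of the 12 libraries, 1 panel per gene with its own linear axis starting at 0; points are libraries, the horizontal line is the group mean and the bar is ± SD (n = 3). Every gene sits lowest in normal liver, Hspb1 drops from the vehicle tumors to both drug groups, and the CCT panels show similar levels in the 3 tumor groups.

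All 10 genes have a unique place in the GRCm38 assembly (GENCODE M21). Tcp1 lies at chr17:12915701-12925067 on the plus strand, Cct2 at chr10:117051001-117063814 on the minus strand and Cct3 at chr3:88297116-88321767 on the plus strand. Cct5 lies at chr15:31590800-31601804 and Cct8 at chr16:87483326-87495873, both on the minus strand. Hspa8 lies at chr9:40800984-40810087 on the plus strand, Hsp90aa1 at chr12:110690605-110702728 on the minus strand and Hsp90ab1 at chr17:45567775-45573271 on the minus strand. Hsph1 and Hspb1 share a chromosome, at chr5:149614287-149636376 on the minus strand and chr5:135887919-135889563 on the plus strand. The values are sums over all exons of a gene, untranslated parts included, and the reads behind them, recovered from the FPKM steps, ran from 50 for Hspb1 in the shallowest case to 99559 for Hsp90ab1.

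Some of these genes share sequence or exon bases with others, which makes their values less certain. Whether counting used strand was not given in the sources used here, and Tcp1 shares 571 exon bases with Acat3 and 141 with Mrpl18 on the opposite strand, as Cct8 shares 192 with Usp16. With stretches of at least 200 bases at 90% identity or more counted as copies, Hspa8 had 13 in the transcript annotation, of which 12 were pseudogenes, Hsp90aa1 had 5, and Hspb1, Hsp90ab1 and Tcp1 had 2 each. Cct3 had 1, and Cct2, Cct5, Cct8 and Hsph1 had 0. The 2 genes sharing sequence with Tcp1, Acat3 (574 bases) and Acat2 (445 bases), were listed at 4.3 to 96.5 and 13.5 to 55.7 FPKM, a range that includes levels as high as those of Tcp1 itself, so the level of Tcp1 is uncertain. The listed copies of the others were low, with Gm12346, a copy of Hsp90aa1, at 0.85 to 3.8 FPKM and the 3 listed copies of Hspa8 at up to 2.65 FPKM. Not listed were the Hspb1 copies Gm9817 and Hsp25-ps1, at 99.8% identity over 477 and 441 bases. The Hspa8 copies Gm15459 and Gm26825, at 99.7% and 99.6%, were not listed either. Their levels are unknown, so those of Hspb1 and Hspa8 are uncertain too. Hsp90aa1 matched Gm12346 at 99.5% over 2255 bases and Gm5844 at 98.5% over 2202, so its level and the HSP90 ratio below are less certain too. The 2 HSP90 genes themselves share no such stretch. Shorter ones were not searched for, so how fully their reads can be told apart is not known.

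The DNA before the start sites is shown for 3 genes that stand for the range of responses below: Hspb1, which moved with both drugs, Hsph1, which differed between the drugs, and Cct3, which rose in the tumors and did not pass the test in any drug comparison. The sequences are the 250 bases before the annotated start in RefSeq (GRCm38.p6), 5′ to 3′ on the gene's strand. Capitals mark a pair of heat shock element units facing each other (GAANNTTC or TTCNNGAA, which covers both strands) and the E-box CACGTG, the core bound by MYC and MAX.

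Hspb1, chr5:135887669-135887918, plus strand: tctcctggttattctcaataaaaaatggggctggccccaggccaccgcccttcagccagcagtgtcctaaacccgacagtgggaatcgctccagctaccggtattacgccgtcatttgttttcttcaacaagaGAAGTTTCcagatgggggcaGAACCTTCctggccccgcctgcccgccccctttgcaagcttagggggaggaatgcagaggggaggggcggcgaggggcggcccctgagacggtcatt

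Hsph1, chr5:149636316-149636565, minus strand: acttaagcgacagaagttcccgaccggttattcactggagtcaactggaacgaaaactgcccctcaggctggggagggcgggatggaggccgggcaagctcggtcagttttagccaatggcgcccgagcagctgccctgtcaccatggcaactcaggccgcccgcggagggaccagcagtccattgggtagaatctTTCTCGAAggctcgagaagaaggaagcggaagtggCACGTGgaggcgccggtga

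Cct3, chr3:88296885-88297134, plus strand: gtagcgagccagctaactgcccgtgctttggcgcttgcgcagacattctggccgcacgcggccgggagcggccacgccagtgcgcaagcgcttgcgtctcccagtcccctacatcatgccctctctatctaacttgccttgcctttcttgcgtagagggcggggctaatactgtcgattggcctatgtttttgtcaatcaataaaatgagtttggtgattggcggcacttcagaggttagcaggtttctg

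The Hspb1 window held 2 heat shock element pairs, at bases -117 to -110 and -97 to -90 counted from the start site. The first Hsph1 window held 1, at -54 to -47, with an E-box at -19 to -14. The Cct3 window held neither motif. Of the 10 genes, 7 had an entry, with 10 windows in all, and Hspa8, Hsp90aa1 and Hsp90ab1 had none. Outside the windows shown, 1 of the Cct2 windows held an element pair at -42 to -35 and 1 of the Cct5 windows held one at -34 to -27, and the windows of Tcp1 and Cct8 held none. A pair of units stood in 12.8% of all 32851 windows and the E-box in 6.02%, while 3 units in a row, which stood in 0.466% of all windows, were found in no window of these genes. A match describes letters only.

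The libraries as a whole differed in composition. Recovered reads ran from 17142366 to 25155192 per library, and within groups log2 profiles correlated at r = 0.958 to 0.9898. The 15 hepatocyte markers were all lower in vehicle tumors than in normal liver (summed 7637 to 10958 FPKM against 111910 to 130208), while all 15 proliferation genes were higher (290.9 to 336.2 against 31.8 to 40.2 FPKM). The scaling in the deposited values allowed for this, and scaling to plain totals instead moved the median of all tested genes in that comparison by 0.57 on the log2 scale, so that differences are best read against that median. The libraries were also scaled in 4 other ways, to equal sums of FPKM, to equal medians, by quantiles and by plain read totals. Where 1 of these changed the call of a member, its value there is given. Named genes of other lists that lost their call are given beside their values or in the closing sections. Tsc2 and Rictor were lower in vehicle tumors than in normal liver, by log2 differences of -0.91 (SE 0.115, adjusted p = 2.45e-05) and -0.44 (SE 0.135, adjusted p = 0.0115), and remained detectable, at means of 2.19 ± 0.157 and 1.25 ± 0.23 FPKM (SD, n = 3). In the drug groups Tsc2 was lower than in normal liver (-0.46 with MLN0128, adjusted p = 0.00353, and -0.65 with everolimus, adjusted p = 0.000326) and higher with MLN0128 than with vehicle (0.46, adjusted p = 0.0114). Rictor was not called there against normal liver (-0.08, adjusted p = 0.611, and -0.17, adjusted p = 0.273), so the labelled Rictor deletion was not seen in those libraries by this measure. The mouse Myc gene was lower in vehicle tumors (1.25 ± 0.412 against 7.54 ± 4.21 FPKM, log2 difference -1.83, adjusted p = 0.0006). Whether reads from the injected c-MYC count toward it is not given. In bulk tissue, fewer cells of a type and less RNA per cell cannot be told apart. MLN0128 replicates 1 and 2 had 191 and 155 FPKM of Xist, the RNA of the inactive X chromosome, against at most 0.0699 in the other 10 libraries, so sex was uneven across groups.

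The first question was how the chaperone genes stood in the tumors against normal liver. In vehicle tumors 9 of the 10 were higher than in normal liver, where 36.0% of all tested genes were, and 7 of 10 passed the test against 1.5-fold, where 15.9% did. In all 10 genes the 3 vehicle tumors lay above the 3 normal livers without overlap, which held for 39.0% of tested genes. The median log2 difference of the 10 was 1.28, against 0.06 over all tested genes. Since the set was chosen with earlier results known, these shares and medians describe it and do not test it. Hspb1 differed most, followed by Cct3, Hsp90ab1 and Hsp90aa1, and Hspa8 least.

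Cct3, the gamma subunit of the chaperonin, had the lowest FPKM of the 5 CCT genes in normal liver and moved most among them. It measured 18.6, 20.8 and 15.1 FPKM in the normal livers and 68.3, 67.1 and 67.5 FPKM in the vehicle tumors. The tumor values lay within 2 FPKM of each other and more than 3-fold above every normal liver (log2 difference 1.85, SE 0.146, limma adjusted p = 6.43e-07). Cct2, the beta subunit, measured 62.4, 74.8 and 56.7 FPKM in normal liver and 166, 200 and 165 FPKM in the tumors, a log2 difference of 1.44 (SE 0.165, adjusted p = 1.14e-05).

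The other 3 CCT genes rose less. Cct5, the epsilon subunit, measured 103, 94.8 and 104 FPKM in normal liver and 212, 245 and 199 in vehicle tumors (log2 difference 1.11, SE 0.159, adjusted p = 6.96e-05). Cct8, the theta subunit, measured 82, 83 and 97.9 FPKM and then 162, 187 and 160 (log2 difference 0.95, SE 0.135, adjusted p = 6.44e-05). Tcp1, the alpha subunit that gave the complex its older name, measured 38.9, 43.9 and 48.2 FPKM and then 69.5, 75.1 and 67.5 (log2 difference 0.69, SE 0.15, adjusted p = 0.00152). Of the 5, Tcp1 alone did not pass the test against 1.5-fold, with an adjusted p of 0.54.

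The genes for the remaining subunits of the ring rose as well. Cct6a, Cct7 and Cct4 were each higher in vehicle tumors than in normal liver, by log2 differences of 1.21 (SE 0.137), 1.21 (SE 0.133) and 0.86, all called. Cct6a, the zeta subunit, went from 49.5 to 53.1 FPKM in normal liver to 114 to 134 FPKM in vehicle tumors, and Cct7, the eta subunit, from 22.7 to 26.1 to 54.9 to 58 FPKM. Cct6b, a zeta subunit known chiefly from testis, was at 0.339 to 0.717 FPKM in normal liver and at 0 to 0.357 FPKM in the tumors and was not tested.

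Summed over the 8 somatic subunits, CCT transcripts came to 419 to 446 FPKM in normal liver and 907 to 1052 FPKM in vehicle tumors. The subunits are used in equal number in the ring. Among the 8 in normal liver the highest level was 4.56 to 6.89 times the lowest, and in the 9 tumors 3.31 to 4.22 times. Those ranges do not overlap, and no test was run on them, since the spread was noticed in the values. The lowest in each normal liver was Cct3, so its exon length and its own rise enter the ranges. Without Cct3, the highest and lowest were Cct5 and Cct7, at 103, 94.8 and 104 against 22.7, 26.1 and 23 FPKM in normal liver. In vehicle tumors they were at 212, 245 and 199 against 56.4, 58 and 54.9 FPKM. Closer levels are therefore not shown for the ring as a whole.

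Both HSP90 genes were more abundant in the tumors. Hsp90ab1, the constitutive isoform, had the highest FPKM of the 10 genes in every tumor library. It measured 215, 303 and 182 FPKM in normal liver and 768, 785 and 826 FPKM in vehicle tumors (log2 difference 1.79, SE 0.2, adjusted p = 9.07e-06). Hsp90aa1, the stress-inducible isoform, measured 113, 102 and 103 FPKM and then 401, 313 and 368 FPKM (log2 difference 1.75, SE 0.182, adjusted p = 5.21e-06). Their folds were alike, at 3.46 and 3.37, and the ratio of the isoforms, given below, was close to the same in both groups.

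Hspa8, the constitutive HSP70, was the exception among the 10. It was already among the highest in FPKM in normal liver, at 193, 316 and 243, and measured 346, 319 and 327 FPKM in vehicle tumors. The tumor values were the higher ones, narrowly in the case of 316 against 319, and the log2 difference of 0.43 (SE 0.206, 95% interval -0.02 to 0.88) missed the threshold (adjusted p = 0.0841). This call depended on scaling, since the difference was 1.36 to 1.62 and called with plain totals, quantiles or equal sums, and on normal liver replicate 2, without which it was 0.61 (adjusted p = 0.0237).

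Hsph1, the HSP110 that recharges HSP70, measured 9.37, 13.1 and 10.3 FPKM in normal liver and 26.7, 15.7 and 31.8 FPKM in vehicle tumors. It rose by 1.07 on the log2 scale (SE 0.262, adjusted p = 0.00337), with vehicle replicate 2 close to the normal livers, and did not pass the test against 1.5-fold (adjusted p = 0.124).

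Hspb1 differed most of the 10 genes. It measured 7.29, 4.4 and 8.64 FPKM in normal liver, where it was the lowest of the 10 in each library, and 84.2, 64.4 and 138 FPKM in vehicle tumors. The difference was 12.2-fold (log2 difference 3.603, SE 0.475, adjusted p = 3.51e-05), and the vehicle tumors differed among themselves by more than 2-fold.

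**Figure D2:**
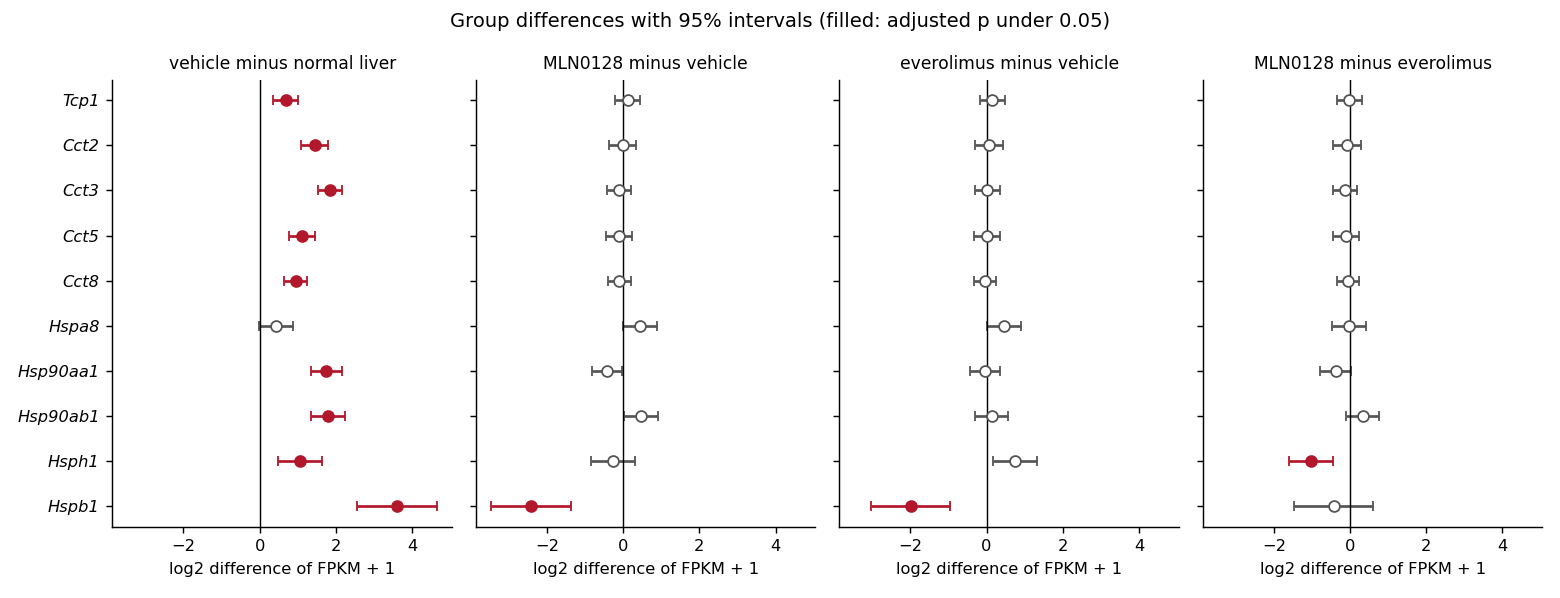
Log2 difference of each gene with its 95% interval from the limma fit in 4 comparisons; filled points passed an adjusted p under 0.05. In vehicle tumors against normal liver every point but Hspa8 is filled, and in the drug comparisons the CCT points lie near 0 with Hspb1 filled against vehicle and Hsph1 filled for MLN0128 against everolimus.

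The second question was what each mTOR inhibitor did to these genes in the tumors. Of the 10 genes, 0 were higher and 1 was lower with MLN0128 than with vehicle, where 14.9% of all tested genes were higher and 17.1% were lower. With everolimus 0 were higher and 1 was lower, against 3.78% and 6.05% of tested genes. The gene lower in each comparison was Hspb1. At an unadjusted p under 0.05 the limma counts were 1 higher and 2 lower with MLN0128, and 2 higher and 1 lower with everolimus, and limma-voom, a fit that weights counts by their precision, on the recovered reads called 0 higher and 1 lower with each drug. Both comparisons share the vehicle tumors, so their values are given side by side and not counted as separate support.

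The CCT genes did not pass the test in any drug comparison, 0 of 5 in each, also at an unadjusted p under 0.05 and by limma-voom. Cct3 measured 64, 64.5 and 58.9 FPKM with MLN0128 and 73.7, 55.7 and 78.8 with everolimus, beside 67.1 to 68.3 with vehicle. Cct2 measured 182, 163 and 180 FPKM with MLN0128 and 200, 146 and 213 with everolimus. The log2 differences of the 5 genes from vehicle ran from -0.11 to 0.13 with MLN0128 and from -0.04 to 0.15 with everolimus. The lowest bound of their 95% intervals was -0.45, for Cct5 with MLN0128, and the highest was 0.47, for Tcp1 with everolimus, so that under the deposited scaling a change of 1.5-fold in either direction lay outside all 10 intervals.

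The calls of the CCT genes depended on scaling for 1 gene. Tcp1, at 81.4, 78.3 and 72 FPKM with MLN0128 against 67.5 to 75.1 with vehicle, was called higher with MLN0128 when libraries were scaled to equal sums (0.36) or by quantiles (0.48). Cct5 measured 200, 214 and 195 FPKM with MLN0128 and 253, 170 and 244 with everolimus, and Cct8 measured 162, 150 and 163 and then 166, 143 and 187 FPKM. Cct4 was at 91.6 to 97.4 FPKM with MLN0128 against 76.1 to 86.2 with vehicle, without overlap, as for 22.1% of tested genes, and not called. The sum over the 8 subunits was 933 to 957 FPKM with MLN0128, within the vehicle range of 907 to 1052, and 798 to 1114 FPKM with everolimus, which spans it.

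With MLN0128 the 2 HSP90 isoforms lay on opposite sides of their vehicle levels, without either passing the test. Hsp90aa1 measured 249, 244 and 318 FPKM with MLN0128 against 401, 313 and 368 with vehicle (log2 difference -0.42, SE 0.182, 95% interval -0.82 to -0.02, adjusted p = 0.101). Hsp90ab1 measured 1170, 1050 and 1070 FPKM with MLN0128, above all 3 vehicle tumors and all 3 everolimus tumors. Such separation upward held for 22.1% of tested genes against vehicle and for 12.5% against everolimus. The log2 difference of Hsp90ab1 from vehicle was 0.47 (SE 0.2, 95% interval 0.03 to 0.90, adjusted p = 0.096). Hsp90ab1 was called higher under equal sums (0.71), quantiles (0.75) and plain totals (0.62). Hsp90aa1 kept the same difference and was called lower (adjusted p = 0.0482) in the fit without everolimus replicate 2.

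With everolimus Hsp90aa1 measured 396, 270 and 400 FPKM and Hsp90ab1 964, 736 and 932 FPKM, which overlap the vehicle values. Their log2 differences from vehicle were -0.04 (SE 0.182, adjusted p = 0.924) and 0.14 (SE 0.2, adjusted p = 0.714).

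A ratio taken within a library does not depend on the scaling between libraries. Hsp90ab1 over Hsp90aa1 was 1.9, 2.97 and 1.77 in normal liver and 1.92, 2.51 and 2.24 in vehicle tumors. With MLN0128 it was 4.7, 4.3 and 3.36, above each of the other 9 libraries. The values of 4.7 and 4.3 are those of the MLN0128 libraries with Xist RNA, and no alternative for Xist was run on the ratio. With everolimus it was 2.43, 2.73 and 2.33. The ratio was 1.85-fold higher with MLN0128 than with vehicle (log2 of Hsp90aa1 over Hsp90ab1, -2.03 ± 0.25 against -1.14 ± 0.196, SD, n = 3 each, exact permutation p = 0.1, the smallest that 3 against 3 libraries can give). Against everolimus it was 1.64-fold higher (exact permutation p = 0.1, n = 3 each) and against normal liver 1.90-fold higher (exact permutation p = 0.1, n = 3 each). Vehicle tumors and normal livers did not differ in it beyond their spread (log2 difference -0.04, exact permutation p = 0.9, n = 3 each), nor did everolimus and vehicle (-0.17, exact permutation p = 0.3, n = 3 each).

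**Figure D3:**
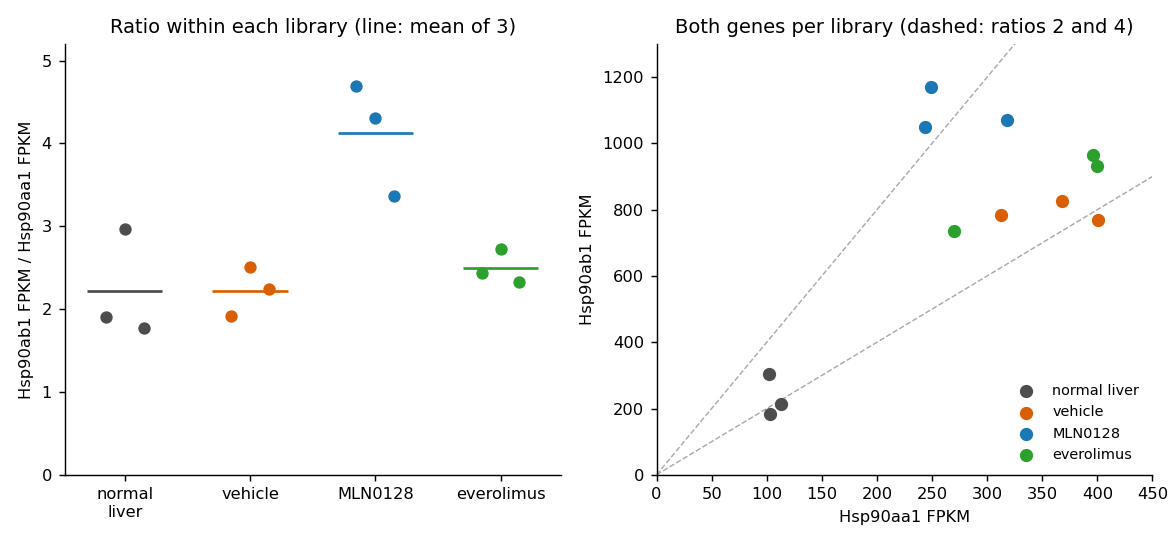
Left, the ratio of Hsp90ab1 to Hsp90aa1 FPKM in each library with the group mean as a line; right, the FPKM of both genes against each other with dashed lines at ratios of 2 and 4. The 3 MLN0128 libraries lie at 3.36 to 4.7, above all others, which lie at 1.77 to 2.97.

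Hspa8 stood higher in each drug group than in the vehicle tumors, without overlap and without passing the test. Such separation upward held for 22.1% of tested genes with MLN0128 and 17.6% with everolimus. It measured 413, 463 and 470 FPKM with MLN0128 (log2 difference 0.44, SE 0.206, 95% interval -0.01 to 0.89, adjusted p = 0.125). It measured 591, 382 and 416 FPKM with everolimus (log2 difference 0.46, SE 0.206, 95% interval 0.01 to 0.91, adjusted p = 0.178). Under equal sums, quantiles and plain totals the MLN0128 difference was 0.68, 0.67 and 0.59 and was called.

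Hsph1 was the member for which the 2 drugs differed. It measured 17.8, 20.5 and 20.5 FPKM with MLN0128 and 52.3, 27.8 and 45.8 FPKM with everolimus. Every everolimus tumor lay above every MLN0128 tumor, as for 15.2% of tested genes, and the vehicle tumors, at 15.7 to 31.8 FPKM, overlapped both groups. MLN0128 was lower than everolimus by a log2 difference of -1.02 (SE 0.262, 95% interval -1.59 to -0.44, adjusted p = 0.0352), the only call among the 10 in this comparison, in which 5.54% of tested genes were lower and 3.99% higher. Neither drug group was called against vehicle (-0.27, adjusted p = 0.465, for MLN0128 and 0.75, adjusted p = 0.0926, for everolimus). Markers of other cells moved in the same comparison. Of 8 erythroid markers 6 were tested, all 6 lay lower with MLN0128 than with everolimus without overlap, and 4 were called, with summed levels of 16.2 to 40.7 against 107 to 131.8 FPKM. Of 12 macrophage markers 2 were called lower, with summed levels of 84.1 to 156.6 against 120.7 to 285.2 FPKM. None of the listed markers of either type was at 0 in every library. Their part in the Hsph1 result was not tested.

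The Hsph1 call was narrow. It was lost without MLN0128 replicate 1, 2 or 3 or without everolimus replicate 1 or 3, with adjusted p values of 0.0508 to 0.135 and log2 differences of -1.28 to -0.84 over all such fits. It was also lost under equal sums (-0.78) and quantiles (-0.92), and without the 2 MLN0128 libraries with Xist RNA (-0.95). Without everolimus replicate 2 the everolimus tumors were called above vehicle (1.013, adjusted p = 0.0269).

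Hspb1 was lower with each drug. It measured 22.4, 7.74 and 23.9 FPKM with MLN0128 and 11.3, 25.5 and 37 FPKM with everolimus, against 84.2, 64.4 and 138 FPKM with vehicle. No drug-treated tumor reached the lowest vehicle tumor, a separation downward that held for 23.4% of tested genes with MLN0128 and 14.8% with everolimus. The log2 difference was -2.42 with MLN0128 (SE 0.475, 95% interval -3.46 to -1.38, adjusted p = 0.00314) and -1.99 with everolimus (SE 0.475, 95% interval -3.03 to -0.95, adjusted p = 0.0246). Neither passed the test against 1.5-fold (adjusted p = 0.056 and 0.403), which called 1.65% of tested genes lower with MLN0128 and 0.570% with everolimus. The 2 drug groups overlapped each other (-0.43, SE 0.475, adjusted p = 0.621).

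The MLN0128 call for Hspb1 held when each library was left out in turn, at -2.68 to -1.93. Without both MLN0128 libraries with Xist RNA the MLN0128 difference was -1.88 and missed the threshold (adjusted p = 0.0645), a fit in which 1 MLN0128 library is assumed to vary like the other groups. The everolimus call was lost without vehicle replicate 1 (adjusted p = 0.0649), vehicle replicate 3 (0.106) or everolimus replicate 1 (0.0999), with differences of -2.35 to -1.53 over all fits that leave out 1 library.

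Markers of bile duct cells moved with Hspb1. Krt19, a keratin of cholangiocytes, was at 0.207 to 0.65 FPKM in normal liver, at 29.6, 9.49 and 44 FPKM in the vehicle tumors, at 0.152 to 0.834 FPKM with MLN0128 and at 0.257 to 0.944 FPKM with everolimus. Within the vehicle tumors it had the same order as Hspb1, lowest in replicate 2 and highest in replicate 3. Its log2 differences were 4.13 for vehicle against normal liver, -4.05 for MLN0128 against vehicle (adjusted p = 0.000114) and -4.04 for everolimus against vehicle. Of the 7 cholangiocyte markers 5 were tested. Of these, 4 were higher in vehicle tumors than in normal liver and 3 were lower with each drug (Krt19, Epcam and Sox9). The summed level of the list came to 43.6 to 47.2 FPKM in the normal livers and to 41.8 to 96.7 in the vehicle tumors, but to 16.6 to 32.8 in the MLN0128 group and 21.2 to 66.2 in the everolimus group, and 0 of the 6 listed markers were at 0 in every library. Whether these markers have a part in the Hspb1 result was not tested.

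**Figure D4:**
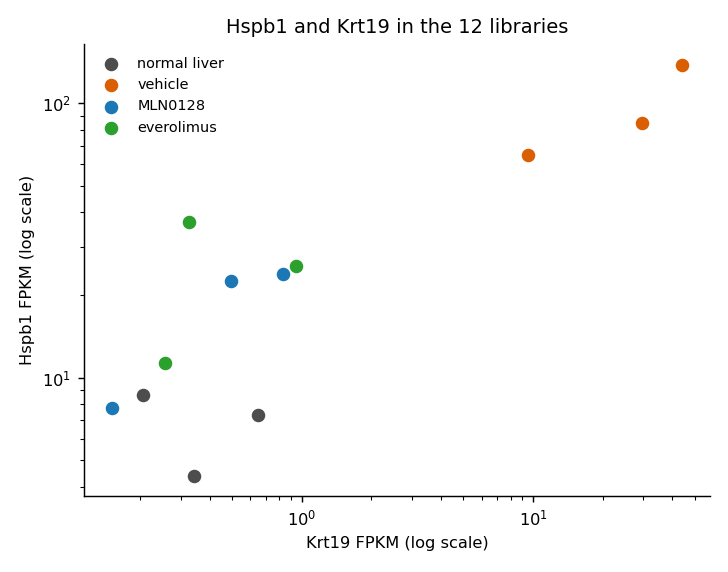
Hspb1 against Krt19 FPKM in the 12 libraries on logarithmic axes, colored by group. The vehicle tumors stand apart at the upper right on both axes, and the drug-treated tumors have Krt19 at 0.152 to 0.944 FPKM with Hspb1 at 7.74 to 37 FPKM.

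Against normal liver all 10 genes were higher with MLN0128, where 37.1% of tested genes were, and all 10 were higher with everolimus, where 35.9% were. The test against 1.5-fold called 5 of 10 with MLN0128 (17.1% of tested genes) and 6 of 10 with everolimus (16.9%). Hsp90ab1 had the largest of these differences in each drug group, 2.26 with MLN0128 (SE 0.2, adjusted p = 1.26e-06) and 1.93 with everolimus (SE 0.2, adjusted p = 4.57e-06). Hspa8 was called against normal liver with each drug, at 0.86 (adjusted p = 0.00247) and 0.89 (adjusted p = 0.00221). Hspb1 with MLN0128 overlapped normal liver, since MLN0128 replicate 2 lay at 7.74 FPKM, and was called at 1.19 (SE 0.475, adjusted p = 0.0404). Its difference from normal liver was thus 3.603 with vehicle, 1.19 with MLN0128 and 1.61 with everolimus. The Hspb1 call with MLN0128 was lost with equal medians (1.06), with voom (1.34) and in 5 of the fits that leave out 1 library. The Hsph1 call with MLN0128 (0.80, adjusted p = 0.0163) was lost with a term for Xist RNA (0.86, adjusted p = 0.0713), without both Xist libraries (adjusted p = 0.0857) and without normal liver replicate 1 (adjusted p = 0.0579). Leaving out 1 library at a time gave 8 to 10 members higher with MLN0128 than in normal liver.

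In the order of group levels, normal liver was lowest for each of the 10 genes. The step from normal liver to the next group passed the test for 9 genes, the exception being Hspa8. Between neighboring tumor groups in that order, 1 step passed the test, from everolimus up to vehicle for Hspb1. The others did not pass, though in some the groups did not overlap. These were Hspa8 from vehicle to MLN0128 (as for 22.1% of tested genes), Hsp90ab1 from everolimus to MLN0128 (12.5%) and Cct3 from MLN0128 to vehicle (23.4%).

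Everolimus replicate 2 stood apart from its group for these genes. It was the lowest of the 3 everolimus tumors for 9 of the 10, all but Hspb1, with a mean log2 deviation from its group of -0.27 where the mean over all tested genes was -0.00604. The same library had the highest summed hepatocyte markers of its group, 12438.5 FPKM against 7134.8 and 6941.9. Alb, at 4860 FPKM against 1320 and 851, and most of the other hepatocyte markers were highest there, while Apoa2 and Ass1 were lowest. Its summed macrophage markers were also highest, at 285.2 FPKM against 120.7 and 137.9. Its summed cholangiocyte markers were highest at 66.2 FPKM, most of it Spp1 at 57.5 FPKM. The part of these differences in the member values was not tested.

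The members were then set beside the rest of the cytosolic chaperone system, 76 genes of which 70 were tested. Of these, 29 were higher and 18 lower in vehicle tumors than in normal liver, with a median log2 difference of 0.18, beside 9 higher and 0 lower among the 10, where 33.0% of all tested genes were lower. This split depended on scaling: it was 35 higher and 16 lower with quantiles, 51 and 5 with plain totals and 56 and 3 with equal sums. With MLN0128 2 were higher and 17 lower than with vehicle (9 and 7 under equal sums, 9 and 12 under plain totals, 8 and 11 with quantiles), and with everolimus 0 were higher and 3 lower. MLN0128 against everolimus gave 0 higher and 11 lower (2 and 5 under equal sums, 1 and 7 under plain totals). The everolimus count of 0 against vehicle was 5 at an unadjusted p under 0.05 and 0 by voom.

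**Figure D5:**
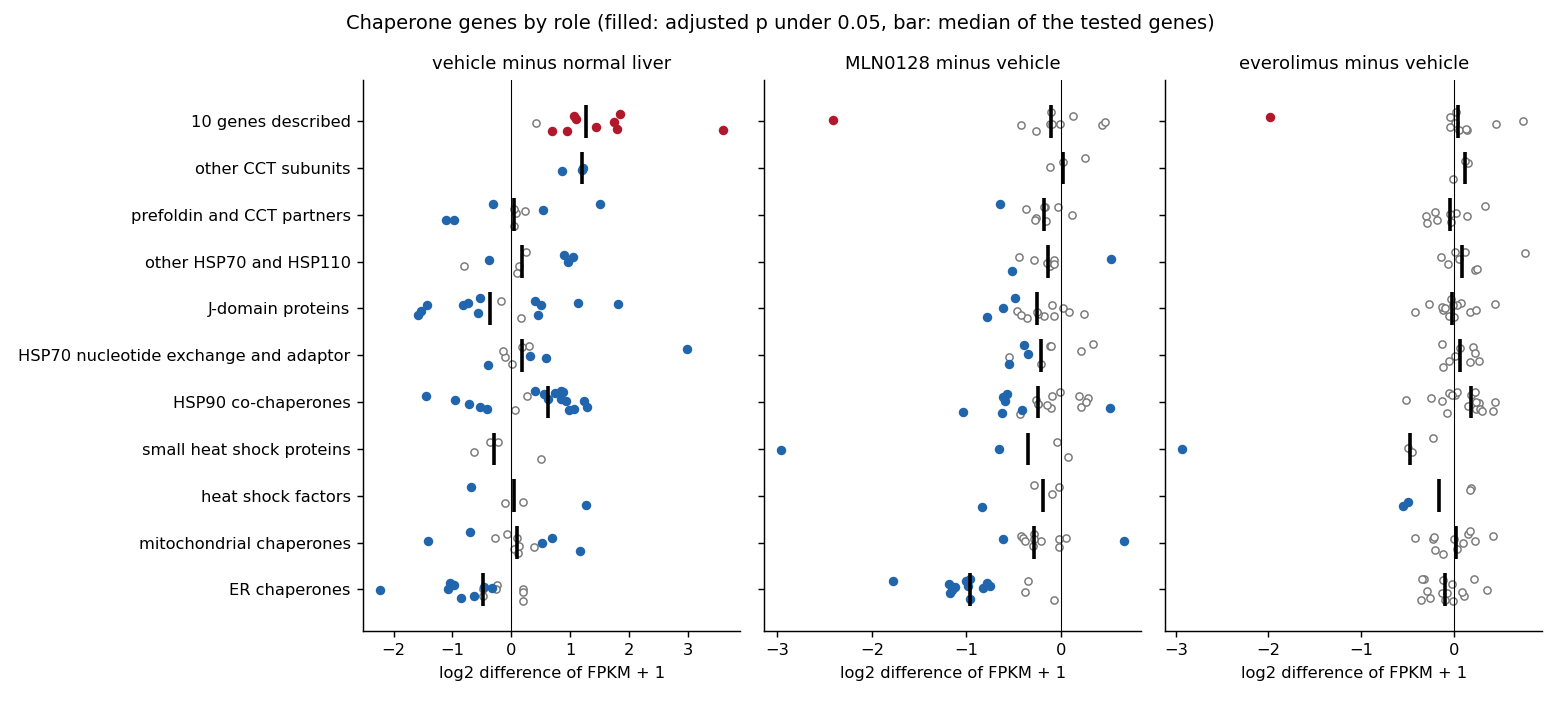
Log2 differences of every tested gene in the members and in each list of other chaperone genes, for vehicle tumors against normal liver and for each drug against vehicle; filled points passed an adjusted p under 0.05 and bars are list medians. The members sit at a median of 1.28 in the vehicle comparison, and the endoplasmic reticulum list has most of its filled points below 0 with MLN0128.

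Prefoldin hands nascent actin and tubulin to CCT. Of 9 prefoldin and CCT partner genes 2 were higher and 3 lower in vehicle tumors than in normal liver, or 7 higher and 0 lower under equal sums and plain totals and 5 and 3 with quantiles. Pfdn4 was higher by 1.51 and Vbp1 by 0.55, while Pfdn5, Pdcl and Txndc9 were at -1.11, -0.98 and -0.30 and turned positive under equal sums. With MLN0128 1 was lower, Pfdn1 at -0.65, and with everolimus 0 were called, 1 at an unadjusted p under 0.05 and 0 by voom.

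The other HSP70 and HSP110 genes split as well, with 3 higher and 1 lower of 8 tested in vehicle tumors (5 and 0 under equal sums and plain totals, 3 and 2 with quantiles). Hspa14, a ribosome-bound HSP70, was higher by 1.05, and the HSP110 genes Hspa4 and Hspa4l by 0.96 and 0.89. Hspa2 was at -0.38 and turned positive under equal sums. With MLN0128 Hspa4 fell by 0.51 on the log2 scale and Hspa1l was higher by 0.53, at low means of 0.865 FPKM against 0.294 with vehicle. Hspa1b, an inducible HSP70 that shares nearly all of its sequence with Hspa1a so that its reads are uncertain, measured 3.67, 9.16 and 4.75 FPKM in normal liver and 2.25, 2.18 and 4.01 FPKM in vehicle tumors, and was not called there.

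Among the partners of HSP70, J-domain proteins deliver clients and BAG proteins exchange its nucleotide. Of 14 J-domain genes 5 were higher and 7 lower in vehicle tumors (9 and 3 under equal sums, 7 and 4 under plain totals). Dnajc9, which also binds histones, was higher by 1.81, Dnajc2 by 1.14 and Dnajc8 by 0.51, while Dnajb2, Dnaja1 and Dnajb4 were lower, at -1.59, -1.54 and -1.43. Of 9 exchange and adaptor genes 3 were higher and 1 lower (9 and 0 under equal sums and plain totals, 5 and 1 with quantiles). Bag2 stood out, at 1.15, 0.83 and 0.94 FPKM in normal liver and 13.5, 14.4 and 16.2 FPKM in vehicle tumors (log2 difference 2.99, adjusted p = 1.39e-08), with Bag6 at 0.59 and Hspbp1 at 0.32. Bag4 was at -0.40 and turned positive under equal sums.

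With MLN0128 against vehicle 3 of the 14 J-domain genes were lower and 0 higher, with Dnajc5 at -0.78 and Dnajc21 at -0.61 the furthest. The count of higher genes was 0 at an unadjusted p under 0.05 and by voom. Of the exchange and adaptor genes 3 were lower and 0 higher (2 higher and 0 lower under equal sums), with Bag2 at -0.55 and Bag1 at -0.39. With everolimus 0 of these 23 genes were called in the J-domain and exchange lists together, with 1 J-domain gene higher and 1 lower at an unadjusted p under 0.05 and 0 by voom.

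Co-chaperones set the pace of the HSP90 cycle and choose its clients. In vehicle tumors 12 of 19 were higher and 5 lower than in normal liver (17 and 0 under equal sums, 15 and 1 under plain totals), with a median log2 difference of 0.63. Stip1, which bridges HSP70 and HSP90, measured 47.4, 57.2 and 37.4 FPKM in normal liver and 122, 108 and 117 FPKM in vehicle tumors (log2 difference 1.29). The HSP90-binding prolyl isomerases Ppid and Fkbp4 were higher by 1.24 and 1.07. Fkbp8 was lower at -1.45 but not called under equal sums (-0.27), and Pih1d1 and Cdc37l1 were at -0.96 and -0.72 and turned positive under equal sums.

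With MLN0128 the co-chaperones were lower in 6 cases and higher in 1 against vehicle (2 and 4 under equal sums, 4 and 4 under plain totals and quantiles). Stip1 measured 69, 75.2 and 79.4 FPKM with MLN0128, below every vehicle tumor (-0.63), as for 23.4% of tested genes. It measured 154, 104 and 160 FPKM with everolimus. Fkbp5 was at -1.04 and Ppid at 0.52. With everolimus 0 of 19 were called, with 2 higher and 1 lower at an unadjusted p under 0.05 and 0 by voom. MLN0128 against everolimus gave 5 lower and 0 higher, with 1 higher at an unadjusted p under 0.05 and 0 by voom.

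Of 7 small heat shock protein genes other than Hspb1, 4 were tested, and limma called 0 in vehicle tumors against normal liver, with 1 higher at an unadjusted p under 0.05 and by voom and 2 higher under equal sums and plain totals. Hspb8, a partner of BAG3 in the disposal of misfolded proteins, measured 99.2, 112 and 92.1 FPKM in normal liver and 54.9, 68.8 and 71.1 FPKM in vehicle tumors. It was at 8.02, 8.04 and 6.35 FPKM with MLN0128 (log2 difference from vehicle -2.96, adjusted p = 0.000204) and at 5.21, 16.9 and 4.73 FPKM with everolimus (-2.93, adjusted p = 0.000496). Like Hspb1, it lay below every vehicle tumor in all 6 drug-treated libraries. Hspb6 was lower with MLN0128 at -0.66.

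Of 4 tested genes of the heat shock factor group 1 was higher and 1 lower in vehicle tumors (4 and 0 under equal sums). Hsf1, the master regulator of the stress response, was higher by 1.27. Hsbp1, which binds the trimer of HSF1, was at -0.69 and turned positive under equal sums. Hsbp1 was lower with MLN0128 at -0.83 and with everolimus at -0.50, and Hsf4 was lower with everolimus at -0.55. Of 14 genes known to be induced by heat that are not members, 4 were higher in vehicle tumors (Hspa4l, Hspd1, Stip1 and Fkbp4) and 3 lower (Dnajb1, Dnaja1 and Ahsa2), against 9 and 0 under equal sums. With MLN0128 4 were lower than with vehicle (Hspb8, Chordc1, Ahsa2 and Stip1), and the MLN0128 tumors were below the everolimus tumors for 6. Of 15 tested immediate early genes, which respond to tissue handling as well as to growth signals, 8 were higher and 1 lower in vehicle tumors (13 and 0 under equal sums), 9 were lower with MLN0128 and 3 with everolimus. The part of that in the member values was not tested.

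Mitochondria and the endoplasmic reticulum have chaperones of their own. Of 12 mitochondrial chaperones 3 were higher and 2 lower in vehicle tumors (11 and 0 under equal sums, 8 and 1 with quantiles), with Hspd1 at 1.16, Lonp1 at 0.69 and Hspa9 at 0.52. Dnajc19 was lower at -1.42 but not called under equal sums (-0.29). Grpel1 was at -0.71, which turned positive under equal sums. With MLN0128 Trap1, a mitochondrial HSP90, was higher by 0.67 and Grpel1 lower at -0.61.

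Of 15 endoplasmic reticulum chaperones 0 were higher and 8 lower in vehicle tumors, a direction that turned with scaling to 10 higher and 1 lower under equal sums and 6 and 1 under plain totals. Dnajb9 was lower at -2.23 under the deposited scaling, and Pdia6 and Dnajc3 were at -1.07 and -1.05 and turned positive under equal sums. With MLN0128 12 of 15 were lower than with vehicle, and 10 to 12 were under the 4 other scalings. Sdf2l1 was at -1.78 and Dnajc3 at -1.19. With everolimus 0 of 15 were called, with 2 lower at an unadjusted p under 0.05 and 0 by voom, and for 12 the MLN0128 tumors were below the everolimus tumors, or 5 to 12 under the other scalings. Counts of 0 higher in this list were also 0 at an unadjusted p under 0.05 and by voom.

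The genes whose levels over the 12 libraries were most like the mean of the members were Cct7 (r = 0.994), the glycolytic enzyme gene Eno1 (0.994), the lamin gene Lmnb2 (0.993), the importin gene Ipo5 (0.992) and the histone methyltransferase gene Dot1l (0.992). These correlations carry no p, since all genes share the libraries and most of the range is the step from liver to tumor. For single members the closest genes were Ssrp1 for Cct2 (r = 0.997), Rnf126 for Cct3 (0.997), Ddx27 for Hsp90ab1 (0.994) and Uchl5 for Hsp90aa1 (0.989). For Hspb1 they were Epn2 (0.973), Sprr1a (0.969) and Hkdc1 (0.969), and for Hsph1 Mrps25 (0.955) and the HSP90 co-chaperone Ahsa1 (0.953).

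Among the members, the closest pair was Cct2 with Cct3 (r = 0.988), followed by Cct5 with Cct8 (0.974). The loosest was Hspa8 with Hspb1 (0.107). Taken as deviations from the group means, which removes the step from liver to tumor, Cct2 and Cct3 still had r = 0.815 over the 12 libraries and Hspa8 and Hspb1 had -0.554. Everolimus replicate 2 was the low library of its group for both of those CCT genes.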

How the data were processed

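Total RNA from 12 mouse liver or tumor samples was sequenced after polyA capture or rRNA removal. The authors deposited 1 table of FPKM values (17007 symbols, 3 significant digits), counted per Ensembl gene and converted to Entrez IDs and symbols. The submitters' processing notes name GRCm38 and FastQC 0.11.7. The aligner and counter are not given in the sources used here. Low values were whole multiples of what 1 read is worth in 98.2% to 98.8% of values under 20 reads (tolerance 0.1 read), which gave the reads behind each value, 17142366 to 25155192 per library, and the scaling factors in the deposited FPKM values, 0.585 to 0.596 in normal liver and 1.10 to 1.37 in tumors.

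FPKM values were taken as log2(FPKM + 1), with genes at 0.5 FPKM or more in at least 3 libraries kept (14397), and fitted with limma 3.58.1 in R 4.3.3 (lmFit, eBayes with trend; treat against 1.5-fold, the counterpart of the authors' glmTreat), all 12 libraries in 1 fit with 6 contrasts. P-values were adjusted by Benjamini-Hochberg over all tested genes. The HSP90 ratio was compared by exact two-sided permutation tests. The labels give no batches. The limma scripts were tested on simulated data. Gene positions came from GENCODE M21, copies from blastn 2.17.0 and promoters from RefSeq.

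The members and gene lists were chosen with earlier results of these data known. Named genes were all members and all other CCT subunits, and from each other list the genes called with the largest differences, at most 3 per direction in vehicle tumors against normal liver and 2 per direction in each drug comparison. Pattern likeness was Pearson r over 12 libraries. Genes named beyond this rule (Hspa1b, Krt19, Epcam, Alb, Apoa2, Ass1, Spp1, Xist and the members of short counts) were chosen after their values were seen. Alternatives were 4 other scalings, other pseudocounts and filters, voom on recovered reads, which called 4953 genes higher and 4605 lower in vehicle tumors against normal liver, a replicate block, an Xist term, single groups and leaving out each library.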

Additional observations from a re-analysis of the deposited data

Results flagged for a closer look

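The difference between the 2 drugs was itself called in the limma comparison of MLN0128 with everolimus (adjusted p under 0.05) for 1 member and for 10 genes of the other chaperone lists that the naming rule picked, at most 2 per direction in each list. In each the value is the log2 difference of MLN0128 minus everolimus, and all 11 were lower with MLN0128. Hsph1 differed by -1.02, with -0.27 for MLN0128 and 0.75 for everolimus against vehicle. The other HSP110 genes Hspa4 and Hspa4l differed by -0.53 and -0.40. The J-domain genes Dnajb1 and Dnajc21 differed by -0.91 and -0.61, and the HSP70 partners Bag2 and St13 by -0.75 and -0.36. The HSP90 co-chaperones Stip1 and Chordc1 differed by -0.87 and -0.85. In the endoplasmic reticulum, Sdf2l1 differed by -1.70 and Hyou1 by -1.18. These calls depended on scaling. Under the 4 other scalings all 10 list genes kept their sign, and Bag2, Stip1, Chordc1, Sdf2l1 and Hyou1 kept their call in each, while Hspa4, Hspa4l, Dnajb1, Dnajc21 and St13 missed the threshold under equal sums (-0.28, -0.19, -0.70, -0.41 and -0.12). The Hsph1 call was lost in 11 of the 26 alternatives. The 2 MLN0128 libraries with Xist RNA enter all 11 values.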

How the results depend on the processing

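Differences between tumor and normal liver depended on scaling. Scaling each library to the same sum of FPKM shifted the median of all tested genes by 0.74 in vehicle tumors against normal liver and by 0.18 in MLN0128 against vehicle, and called 9515 genes higher and 1686 lower in the former. The median of the members less that of all genes was 1.66 under equal sums, 1.57 under plain totals, 1.98 with quantiles and 1.17 with equal medians. Recovered reads were fewest for Hspb1, at 50 in the lowest library.

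For MLN0128 against vehicle, the members called higher were 3 under equal sums, 3 with quantiles and 2 under plain totals, in place of 0. These were Tcp1 (0.36 and 0.48, not under plain totals), Hspa8 (0.68, 0.67 and 0.59) and Hsp90ab1 (0.71, 0.75 and 0.62). Hspa8 in vehicle tumors against normal liver was called at 1.62, 1.504 and 1.36 under equal sums, quantiles and plain totals. The members called lower with MLN0128 than vehicle were 0 with a term for Xist RNA and 0 without both libraries that have it, an alternative added after the data were seen, with Hspb1 at -1.88 in each. By the test against 1.5-fold that count was 1 in place of 0 with pseudocounts of 0.1 and 0.5, a filter at 2 FPKM, voom, the replicate block and a threshold of 1.2-fold.

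For MLN0128 against everolimus, the members called lower were 0 in place of 1 under equal sums, with quantiles, in a fit of only those groups, under the replicate block, with the Xist term and without both Xist libraries. Hsph1 was then at -0.78, -0.92, -1.02, -1.02, -0.95 and -0.95. Against normal liver, Hsph1 with MLN0128 was at 0.86 and not called with the Xist term or without those libraries, and Hspb1 with MLN0128 was at 1.06 with equal medians and 1.34 with voom, not called. By the test against 1.5-fold, the members higher with MLN0128 than normal liver were 10 under equal sums, 8 with quantiles and 10 under plain totals in place of 5, and 8 and 2 with thresholds of 1.2-fold and 2-fold. Those higher with everolimus were 10 under equal sums, plain totals and a threshold of 1.2-fold in place of 6, and those higher with vehicle were 4 at 2-fold in place of 7.

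Of the other 70 cytosolic chaperone genes, equal sums and plain totals gave 56 and 51 higher and 3 and 5 lower in vehicle tumors against normal liver, 52 and 47 higher and 3 and 8 lower with MLN0128 against normal liver, and 54 and 51 higher and 4 and 8 lower with everolimus against normal liver. For MLN0128 against vehicle they gave 9 and 9 higher, with 7 lower under equal sums. For everolimus against vehicle they gave 1 and 1 higher, and for MLN0128 against everolimus 2 and 1 higher and 5 and 7 lower, in place of 0 and 11. Some named list genes kept their sign but lost their call under at least 1 of the 4 other scalings. In vehicle tumors against normal liver these were Dnaja1, Hspbp1, Fkbp8, Hspa9 and Dnajc19. With MLN0128 against vehicle they were Pfdn1, Hspa4, Bag1, Bag2, Stip1, Hspb6 and Grpel1.

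Leaving out 1 library at a time gave 1 to 2 members lower with MLN0128 than vehicle and 0 to 1 by the test against 1.5-fold, 0 to 1 higher and 0 to 1 lower with everolimus than vehicle, and 0 to 1 lower with MLN0128 than everolimus. The log2 differences then ran from 0.25 to 0.61 for Hspa8 in vehicle tumors against normal liver, from -0.54 to -0.34 for Hsp90aa1 with MLN0128 against vehicle and from 0.46 to 1.013 for Hsph1 with everolimus against vehicle. Hsph1 ran from -1.28 to -0.84 between the drugs and from 0.70 to 0.93 with MLN0128 against normal liver, where the call was lost without normal liver replicate 1 (adjusted p = 0.0579). Hspb1 ran from -2.35 to -1.53 with everolimus against vehicle and from 0.92 to 1.68 with MLN0128 against normal liver, where the call was lost without normal liver replicates 1 or 2, vehicle replicate 1 or MLN0128 replicates 1 or 3. The log2 ratio of Hsp90aa1 to Hsp90ab1 in vehicle tumors against normal liver ran from -0.27 to 0.11 and turned positive without normal liver replicate 1 or 3 or vehicle replicate 2. The cause was not tested for any of these. Values of members that were called in neither fit changed sign in 62 of 1560 cases, all at an adjusted p of 0.126 or more.

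No sign was seen that the replicate numbers in the labels paired the samples, though with 3 libraries per group this check cannot exclude it. Deviations from group means correlated at -0.29 to 0.15 between libraries with the same number (18 pairs) and at -0.29 to 0.40 between libraries with different numbers (36 pairs). With the replicate number as a block, Hsph1 between the drugs kept its difference of -1.02 at an adjusted p of 0.0515.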
